A study of Homo sapiens with 8 samples.

Results

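The signal peptide peptidase family comprises aspartyl proteases that cut other proteins inside a membrane. Its representation was examined in a genome-wide loss-of-function CRISPR screen of γ-secretase inhibitor (GSI) resistance. All single guide RNAs (guides) that the count table assigned to HM13, SPPL2A, SPPL2B or SPPL3 were taken, which gave 24 guides against 4 genes, 6 for each gene. The whole table held 111627 guides against 18913 genes. The 4 genes were chosen by name, as relatives of the protease of γ-secretase, with the results of the screen already known, including the position of HM13 in the comparison of GSI with DMSO. Their values in that comparison are therefore a description, and the p-values printed beside them support nothing on their own.

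The screen used MB157R, 1 GSI-resistant line derived from the NOTCH-driven triple-negative breast cancer (TNBC) line MB157 by long exposure to the drug, which stably expressed Cas9. Cells were transduced with the human GeCKOv2 knockout library (its A and B parts combined), selected with puromycin and merged into 1 pool. GSI cultures (3 libraries) received the inhibitor LY3039478 at 10 µM until day 14, DMSO cultures (3 libraries) received the vehicle until day 14, and T0 (2 libraries) was taken from the pool before treatment. All groups carried Cas9 and the guide library, and the groups differed only in drug and time. Every value below is the abundance of a guide in genomic DNA. No protein, transcript or edited allele was measured, so the loss of a gene product in the cells carrying a guide was not tested.

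Signal peptide peptidase, the product of HM13, resides in the endoplasmic reticulum, where it cuts the remnant signal peptides that signal peptidase leaves behind, as well as some tail-anchored and misfolded membrane proteins. SPPL2A and SPPL2B act in late endosomes, lysosomes and the cell surface on membrane stubs that sheddases leave, such as those of TNF and, for SPPL2A, CD74. SPPL3 resides in the Golgi apparatus and releases glycosyltransferases from their membrane anchors. All are related to the catalytic part of γ-secretase, but sit in the membrane the other way round, and they share with it a pair of aspartates in neighbouring transmembrane segments, one of which lies in a glycine-x-glycine-aspartate motif. Some γ-secretase inhibitors also bind signal peptide peptidase. Whether LY3039478 did so in these cells was not measured.

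The reference coding sequences around this motif are given to show the feature that unites the family and that PSEN2, a γ-secretase gene, shares. Each is a run of 30 bases on the coding strand of GRCh38 (GENCODE annotation, 1 reference transcript per gene), with the codons of glycine, the variable residue, glycine and aspartate in capitals.
HM13: gccatgctgGGACTTGGAGATgtcgtcatt
SPPL2A: tcaatattgGGTTTTGGAGACattattgta
SPPL2B: tccctcctgGGTTTCGGAGACattttggtg
SPPL3: tccatgttgGGCATCGGAGACatcgttatg
PSEN2: gtgaagcttGGCCTCGGGGACttcatcttc

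The HM13 stretch lies in exon 8, at chr20:31554796-31554825 on the plus strand, and its aspartate is residue 265 of 426. The SPPL2A stretch lies in exon 12, at chr15:50725225-50725254 on the minus strand, with the aspartate at residue 412 of 520. The SPPL2B stretch is in exon 12, at chr19:2344619-2344648 on the plus strand, with the aspartate at residue 421 of 592. The SPPL3 stretch is in exon 9, at chr12:120767545-120767574 on the minus strand, with the aspartate at residue 271 of 384. The 4 genes thus lie on 4 chromosomes. Among the members, SPPL2A and SPPL2B had 22 of 30 bases in common and HM13 had 17 in common with each of them. SPPL3 shared 21 bases with each of HM13, SPPL2A and SPPL2B. With PSEN2, HM13 shared 18 bases, SPPL3 17, and SPPL2A and SPPL2B 14 each. Guide sequences were not used here, so the cut sites of the guides within these genes were not located.

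Sequencing depth ranged from 12.9 to 18.2 M counts (M, 1e+06) over the GSI libraries, from 12.1 to 15.5 M over the DMSO libraries and from 15.2 to 17.7 M at T0. In GSI replicate 1 a single guide against another gene, VPS33B, took 38.8% of the counts, which left a median of 66 counts per guide there against 80 to 112 elsewhere. The T0 libraries were uneven: 5.12% and 11.5% of all guides had no count, against 0.738% to 3.94% at day 14, and 33.4% of the tested guides differed more than 4-fold between the pair of aliquots. Counts were divided by a size factor per library (median ratio), and these normalized counts are the values given below. Because reads of PCR products are not independent molecules, depth sets no more than the counting error. The cultures and the T0 aliquots all came from 1 transduced pool, and the p-values reflect the variation among them.

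The family was represented at a similar level in all groups. Its 24 guides together held 155, 182 and 192 counts per M in the GSI libraries, 161, 195 and 184 in the DMSO libraries and 162 and 151 at T0, each computed without the most abundant guide of its library. The groups overlapped. Each library of day 14 lacked 1 of the 24 guides, and the T0 libraries lacked 3 and 4. The third guide against SPPL2B (HGLibA_46779) was detected only in DMSO replicate 2, with 23 counts, and did not reach the mean of 10 counts over the 8 libraries required for testing, so that 23 guides were tested, of 116852 tested guides in all.

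HM13 stood apart from the other members in depth. Its guides averaged 47.9 raw counts over the 8 libraries, from 34.1 for the scarcest to 70.5 for the most abundant guide, which placed the gene at percentile 0.883, below nearly all genes with at least 4 tested guides. The guides of SPPL2A averaged 125 counts, the 5 tested guides of SPPL2B 122 and those of SPPL3 137, near the average of 128 over all guides of genes. The untested guide of SPPL2B, at a mean of 2.88 counts, is not in its average. Judged by mean depth, the relative counting error of HM13 is accordingly the largest in the family. Among single tested guides, SPPL2B guide 1 (mean of 22.5 counts) and SPPL2A guide 4 (31.75) were scarcer than any HM13 guide. The part of this low depth in the results for HM13 was not tested, except that at a minimum mean count of 50 fewer than 4 of its guides remained and the gene had no value.

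The comparison of GSI with DMSO asks which gene losses cost or benefit resistant cells under the drug. HM13, the signal peptide peptidase gene, had the lowest median fold change of any gene, with a wide spread between its guides and no call. The libraries of SPPL2A, SPPL2B and SPPL3 overlapped between the treatments.

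Of the 6 HM13 guides, guide 6 (HGLibB_21636) was the only one whose groups did not overlap, with normalized counts of 39.1, 26.2 and 20.9 in the GSI libraries, against 51.5, 54.2 and 67.2 in the DMSO libraries. All 3 GSI values were below all 3 DMSO values. Its log2 fold change was −1.00 ± 0.83 (SE). Guide 2 (HGLibA_21663) had 67.3, 18.3 and 8.4 in the GSI libraries, against 255.3, 36.1 and 51.3 in the DMSO libraries, with the groups overlapping through the high GSI replicate 1, and a log2 fold change of −1.88 ± 0.86.

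Guides 4 and 5 were nearly lost in both libraries numbered 1. Guide 4 (HGLibB_21634) had 2.7, 13.5 and 12.5 in the GSI libraries, against 1.1, 74.9 and 58.1 in the DMSO libraries (log2 fold change −2.19 ± 1.28). Guide 5 (HGLibB_21635) had 1.3, 19.9 and 4.2 in the GSI libraries, against 1.1, 18.1 and 71.8 in the DMSO libraries (−1.79 ± 1.45). For both guides the normalized count of DMSO replicate 1 lay below those of all GSI libraries, so the groups overlapped. In raw counts, GSI replicate 1 and DMSO replicate 1 had 2 and 1 for guide 4, and 1 and 1 for guide 5.

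The remaining pair of HM13 guides went the other way. Guide 1 (HGLibA_21662) had 35, 26.2 and 81.5 in the GSI libraries, against 29.6, 65 and 12.5 in the DMSO libraries, and guide 3 (HGLibA_21664) had 75.4, 90.6 and 126.4, against 48.2, 132.7 and 57. Both had overlapping groups and log2 fold changes of 0.41 ± 0.91 and 0.30 ± 0.61, smaller than their errors. HM13 therefore had 4 negative and 2 positive guides.

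**Figure D1:**
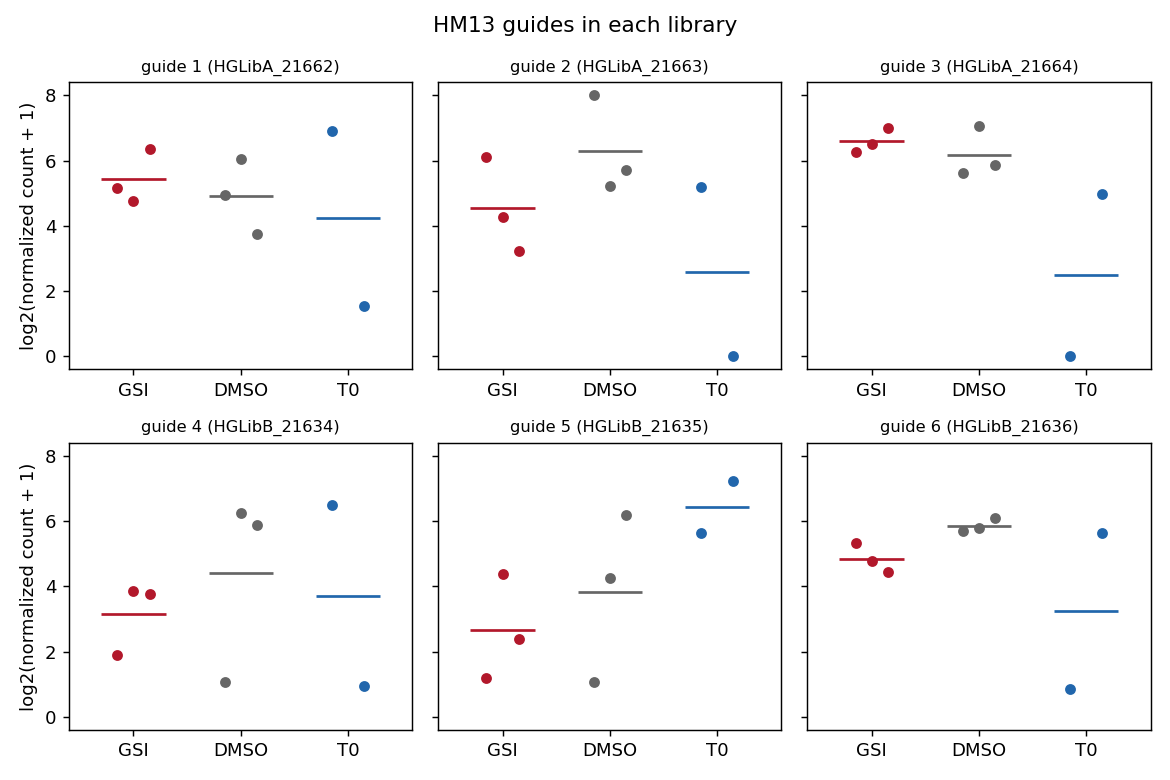
Normalized counts of the 6 HM13 guides, as log2(count + 1) on the vertical axis, in the GSI, DMSO and T0 libraries (1 point per library, in replicate order from left to right, bars at group means). Guide 6 is the one whose GSI points all lie below its DMSO points, guides 4 and 5 are low in replicate 1 of both treatments, and several guides have 1 T0 point at or near 0.

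The fold change of a gene was taken as the median log2 fold change over its tested guides. The SD over guides is printed beside it, as a measure of how far the guides disagree and not of the variation between cultures. For HM13 the median was −1.40 ± 1.14 (SD, n = 6 guides), the lowest of the 18570 genes with at least 4 tested guides. The next medians were those of NOTCH3 at −1.15 ± 1.00 (n = 5 guides) and of SOX2 at −1.15 ± 0.85 (n = 4 guides). The SD over guides of HM13 was at percentile 92.8 of all genes, so its guides disagreed more than those of most genes. Robust rank aggregation asks whether the guides of a gene crowd at 1 end of the ranking of all guides. In this test HM13 was at rank 113 from the low side, with an adjusted p of 0.962 after Benjamini-Hochberg adjustment, and was not called. On the same side SOX2 also had an adjusted p of 0.962 and NOTCH3 had 0.975.

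Its position rested on a few libraries. The median was −0.78 without DMSO replicate 1, which placed HM13 at rank 144 from the lowest, and −0.52 without DMSO replicate 3, at rank 769. It was between −1.32 and −1.12 when any other single library was left out, with ranks from 3 to 29. The direction was negative under every alternative that gave a value.

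Averaged over its 6 guides, HM13 had a mean normalized count of 36.8, 32.5 and 42.3 in the GSI libraries, against 64.5, 63.5 and 53.0 in the DMSO libraries (37.2 ± 4.93 in GSI and 60.3 ± 6.38 in DMSO, SD, n = 3 each). All GSI libraries lay below all DMSO libraries. Such a separation occurred for 5.85% of genes on the low side and for 3.7% on the high side. A fit of the counts summed per gene gave a log2 fold change of −0.70 ± 0.32 (SE), with an adjusted p of 1.00 (edgeR). When every guide was given equal weight on the log scale, as the mean of log2(normalized count + 1), the libraries overlapped, with 4.33, 4.76 and 4.53 in GSI and 4.40, 5.77 and 5.58 in DMSO (difference −0.71, exact two-sided permutation test, p = 0.3, where 3 against 3 libraries cannot give a p under 0.1).

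**Figure D2:**
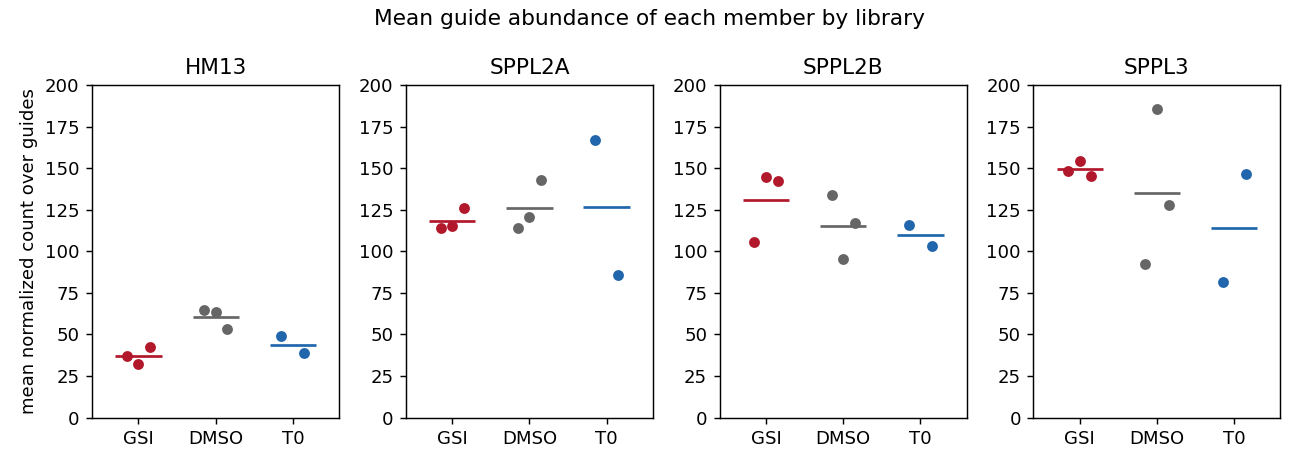
Mean normalized count over the tested guides of each member (vertical axis, from 0) in the GSI, DMSO and T0 libraries, 1 point per library with bars at group means. The HM13 points lie at 32.5 to 42.3 in GSI and at 53.0 to 64.5 in DMSO without overlap, and the groups of the other 3 members overlap.

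SPPL2A, the endosomal and lysosomal member, overlapped between the treatments. Its mean normalized count was 113.8, 115.4 and 126.2 in the GSI libraries, against 113.8, 120.8 and 142.9 in the DMSO libraries, so the groups overlapped. The median log2 fold change was 0.12 ± 0.54 (SD, n = 6 guides), at percentile 68.5 of all genes, and it changed sign with other settings, to −0.09 from summed counts, to −0.08 with library totals as size factors and to −0.05 without DMSO replicate 1. A single guide stood apart. SPPL2A guide 1 (HGLibA_46774) had 177.8, 116.8 and 202.6 in the GSI libraries, against 276.2, 263.6 and 260.8 in the DMSO libraries and 265.2 and 263.8 at T0, so every GSI library was below every other library (GSI against DMSO, −0.69 ± 0.39, SE). The other 5 guides of SPPL2A had log2 fold changes from −0.10 to 0.94, all with overlapping groups, and the most positive of them, guide 4 (HGLibB_46717), had 57.9, 33.4 and 38.6 in the GSI libraries, against 47.1, 0 and 20.5 in the DMSO libraries. Guide 2 (HGLibA_46775) was the closest to no change, at 0.01, with 161.6, 117.6 and 160.8 in the GSI libraries, against 134.8, 142.6 and 160.6 in the DMSO libraries.

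SPPL2B had guides that disagreed by more than those of most genes. Its SD over guides of 1.34 was at percentile 96.0. Guide 5 (HGLibB_46721) had 136, 198.7 and 319.5 in the GSI libraries, against 61.4, 96.6 and 156 in the DMSO libraries (log2 fold change 1.06 ± 0.49, SE), with an overlap between GSI replicate 1 and DMSO replicate 3. Guide 1 (HGLibA_46777), by contrast, had 12.1, 5.6 and 5.2 in the GSI libraries, against 5.5, 16.3 and 88.8 in the DMSO libraries (−2.26 ± 1.32), and DMSO replicate 3 alone was high.

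Guide 2 of SPPL2B (HGLibA_46778) had 187.2, 169.3 and 124.3 in the GSI libraries, against 393.4, 182.4 and 183.4 in the DMSO libraries (−0.66 ± 0.43), and the groups overlapped through GSI replicate 1. Guide 4 (HGLibB_46720) had 84.8, 250.3 and 107.6 in the GSI libraries, against 119.4, 73.1 and 93.4 in the DMSO libraries (log2 fold change 0.64), with GSI replicate 2 far above the rest. Guide 6 (HGLibB_46722) had a fold change of 0.45, also with overlapping groups. The median over the 5 tested guides was 0.45 (percentile 94.0), whereas the mean over guides was −0.15, and the median was −0.10 when the third guide was kept. Rank aggregation gave SPPL2B an adjusted p of 0.977 on the low side and of 0.973 on the high side. Without GSI replicate 2 the median was 0.01, without GSI replicate 3 it was 0.22 and without DMSO replicate 3 it was 0.27.

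SPPL3, the Golgi member, had a median of 0.32 ± 0.75 (SD, n = 6 guides, percentile 87.9), and rank aggregation gave an adjusted p of 0.980 on the high side. SPPL3 guide 6 (HGLibB_46728), the most abundant guide of the family, had 355.5, 315.5 and 363.4 in the GSI libraries, against 236.7, 305.2 and 272.2 in the DMSO libraries. SPPL3 guide 1 (HGLibA_46783) had 107.7, 90.6 and 84.6, against 77.8, 66.8 and 84.3. Both were higher in all GSI libraries, with small log2 fold changes of 0.34 and 0.30.

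The other SPPL3 guides overlapped between the treatments. Guide 5 (HGLibB_46727) was highest, with 56.6, 162.9 and 108.6 in the GSI libraries, against 43.8, 65.9 and 38.7 in the DMSO libraries (1.14 ± 0.64, SE). Guide 3 (HGLibA_46785) was lowest, with 122.6, 49.3 and 85.6 in the GSI libraries, against 74.5, 246.5 and 182.2 in the DMSO libraries (−0.97 ± 0.55). These guides lay on opposite sides of 0, each by more than its SE. The mean normalized count of the gene was 148.4, 154.3 and 145.3 in the GSI libraries, against 92.1, 185.7 and 127.8 in the DMSO libraries. The GSI libraries lay close together, within the range of the DMSO libraries. On the log scale the differences between GSI and DMSO were 0.33 for SPPL2A, 0.01 for SPPL2B and 0.24 for SPPL3 (exact two-sided permutation tests over 3 against 3 libraries, p = 0.4, 1 and 0.6).

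**Figure D3:**
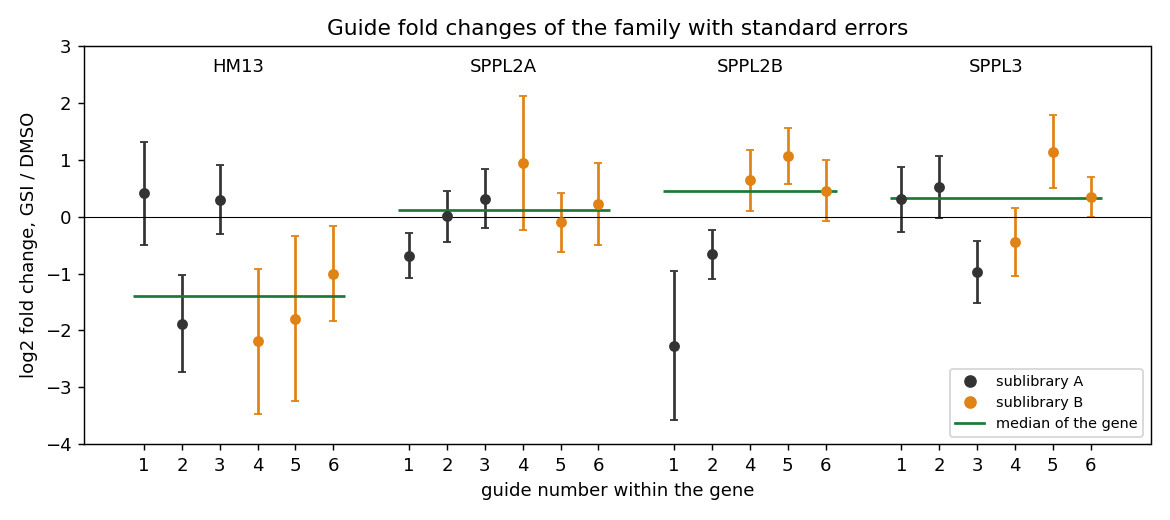
Log2 fold change, GSI over DMSO, of the 23 tested guides by gene and guide number (horizontal axis). Standard errors were derived from the edgeR F statistic. Points are coloured by the part of the library (A or B), and horizontal bars mark the median of each gene. HM13 has 4 guides below 0 and a median of −1.40, and the guides of the other members lie on both sides of 0 with medians from 0.12 to 0.45.

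Over all 23 guides of the family, 10 had negative and 13 positive log2 fold changes, from −2.26 to 1.14, with a median of 0.22. In all GSI libraries 2 were lower and 2 were higher than in any DMSO library, against 4.36% of all tested guides lower and 4.72% higher. None was called by edgeR, with an adjusted p of 1 for each, and none by DESeq2. At an unadjusted p under 0.05 there were 2 by either tool, HM13 guide 2 and SPPL2B guide 5 in edgeR, while 3.01% of all tested guides passed that level in edgeR and 4.35% in DESeq2. The share of all guides called by edgeR was 0%, and the share of all genes called was also 0%.

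The signs of the guides differed between the parts of the library for HM13 and SPPL2B, in opposite directions. SPPL2A and SPPL3 had guides of both signs in each part. HM13 had 3 of 3 negative guides in part B and 1 of 3 in part A, and SPPL2B had 2 of 2 tested guides negative in part A and 3 of 3 positive in part B. Over the family, 5 of 11 guides of part A and 5 of 12 of part B were negative. The medians of all tested guides were 0.03 in part A and −0.08 in part B, and the role of the part in the results was not tested.

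The comparison of DMSO with T0 asks what 14 days of culture did without the drug. It shares the DMSO libraries with the comparison above, with the other sign, and the T0 libraries with the next one. No member was called. Gene medians were 0.60 ± 1.76 for HM13, 0.03 ± 1.20 for SPPL2A, −0.15 ± 1.01 for SPPL2B and 0.26 ± 1.67 for SPPL3 (SD over guides), and the lowest adjusted p on either side was 0.969. The share of genes called was 0.0323%, and the share of guides called by edgeR was 0%.

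HM13 had a mean normalized count of 64.5, 63.5 and 53.0 in the DMSO libraries, against 48.8 and 38.6 at T0, with no overlap. A separation in this direction was found for 12.4% of genes, and in the other direction for 17.1%. The guides behind it were uneven at T0. HM13 guide 1 had 119.6 and 1.9, guide 2 had 35.1 and 0, guide 3 had 0 and 30.4, guide 4 had 88.7 and 0.9, and guide 6 had 0.8 and 49.3 in the 2 aliquots. Only guide 5, with 48.5 and 149, was well represented in both. The median for HM13 was 2.77 without T0 replicate 1, 0.92 without DMSO replicate 1 and 0.32 without DMSO replicate 2. The medians of SPPL2A and SPPL2B changed sign when 1 library was left out, since SPPL2A had −0.16 without T0 replicate 2, and SPPL2B had 0.25 without T0 replicate 1 and 0.12 without DMSO replicate 1. SPPL3 stayed positive but had a median of 0.03 without DMSO replicate 2, 0.48 without DMSO replicate 1 and 0.51 without T0 replicate 2.

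The same unevenness marked the family at large. Between the T0 aliquots 11 of its 23 guides (47.8%) differed more than 4-fold, with a median absolute log2 difference of 1.87, against 33.4% and 1.25 over all tested guides. SPPL3 guide 3 had the highest fold change, with 74.5, 246.5 and 182.2 in the DMSO libraries, against 3.3 and 20.9 at T0. Its log2 fold change was 3.79 ± 1.14 (SE; edgeR, adjusted p = 0.527), and DESeq2 gave it an adjusted p of 0.00186. SPPL2B guide 2, with 393.4, 182.4 and 183.4 in the DMSO libraries, against 108.8 and 64.5 at T0, was the other guide with an unadjusted p under 0.05 (1.54 ± 0.65, edgeR, adjusted p = 0.624).

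In the DMSO libraries 7 of the 23 guides were higher and 1 lower than in both T0 libraries, against 14.9% and 13.1% of all tested guides, and the fold changes ran from −1.70 to 3.79. The guide that was lower was SPPL2B guide 6 (HGLibB_46722), with 89.9, 109.2 and 63.8 in the DMSO libraries, against 118.8 and 276.2 at T0. No guide of the family was called by edgeR, 2 had an unadjusted p under 0.05 (7.75% of all tested guides did), and DESeq2 called SPPL3 guide 3. DESeq2 called 5.7% of all tested guides in this comparison, so 1 of 23 is no more than the background. With T0 replicate 1 left out, 3 guides were called by edgeR, namely HM13 guide 2, SPPL3 guide 2 (HGLibA_46784) and SPPL2A guide 3 (HGLibA_46776), each of them at 0 in T0 replicate 2. Of all tested guides 7.13% were called under that setting, in which the lone T0 library is assumed to vary like the DMSO libraries.

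GSI with T0 compares 14 days of culture under the drug with the starting pool. The medians were −0.08 ± 2.20 for HM13, 0.20 ± 1.35 for SPPL2A, 0.31 ± 1.18 for SPPL2B and 0.59 ± 1.27 for SPPL3 (SD over guides), with a lowest adjusted p of 0.984. HM13 was thus near 0 against T0, but its median was 2.44 without T0 replicate 1, −0.75 without T0 replicate 2 and 0.10 without GSI replicate 2. The median of SPPL2A was −0.08 without T0 replicate 2, and that of SPPL2B was −0.31 without GSI replicate 2. The median of SPPL3 was 1.01 without T0 replicate 1 and 0.92 without T0 replicate 2. The mean normalized count of HM13 in the GSI libraries (37.2 ± 4.93, SD, n = 3) overlapped that at T0 (43.7 ± 7.22, n = 2). Separations of this mean count were seen for 19.2% of genes on the low side and for 11.4% on the high side, and for no member. On the log scale, HM13, SPPL2B and SPPL3 had GSI libraries that were all higher than the T0 libraries, by 0.75, 0.38 and 1.42, for SPPL2B by a narrow margin (exact two-sided permutation test, p = 0.1 for each, the smallest that 3 against 2 libraries allow). On this scale 30.5% of all genes were higher in every GSI library and 7.23% were lower.

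HM13 guide 5 had the lowest fold change of the family against T0. It had 1.3, 19.9 and 4.2 in the GSI libraries, against 48.5 and 149 at T0, with no overlap (log2 fold change −3.50 ± 1.36, SE; edgeR, adjusted p = 0.532). SPPL3 guide 3 had 122.6, 49.3 and 85.6 in the GSI libraries, against 3.3 and 20.9 at T0, also with no overlap (2.82 ± 1.23; edgeR, adjusted p = 0.572). Over the family 2 guides were lower and 6 higher in all GSI libraries, against 13.6% and 15.7% of all tested guides. None was called by edgeR, which called 0% of all guides and 0 of the 18570 genes, or by DESeq2, which called 6.77% of all guides. An unadjusted p under 0.05 was found for 2 in edgeR (8.71% of all tested guides) and for 3 in DESeq2 (18.1%). Leaving out T0 replicate 1 gave 3 guides called by edgeR, with HM13 guide 5 lower and SPPL3 guide 2 and SPPL2A guide 3 higher, and leaving out T0 replicate 2 gave 2, SPPL3 guide 3 and HM13 guide 3, both higher. The shares of all tested guides called in these fits were 18.1% and 4.72%.

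**Figure D4:**
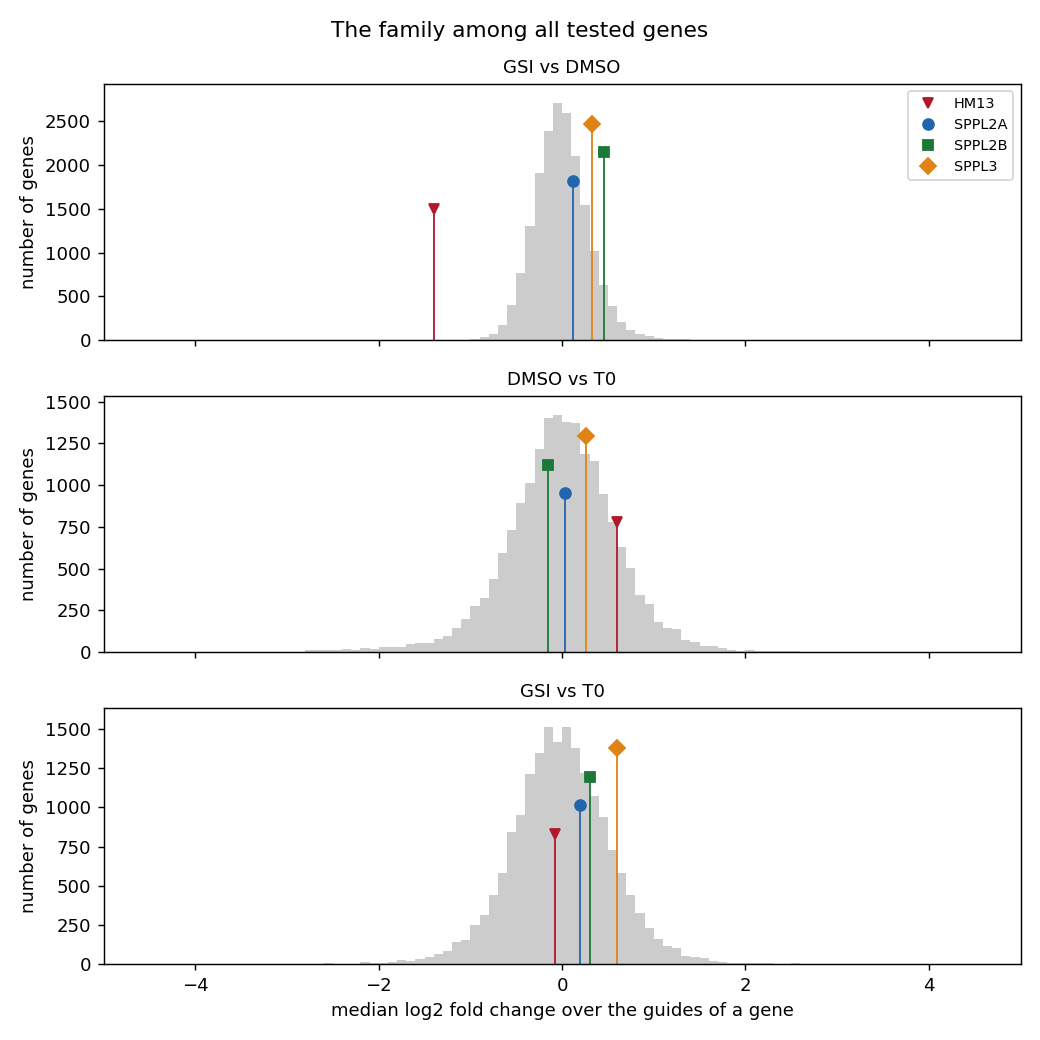
Distribution of the median log2 fold change over guides of the 18570 tested genes (grey, number of genes per bin of 0.1) in 3 panels, GSI over DMSO at the top, then DMSO over T0 and GSI over T0, with the 4 members marked by coloured symbols, whose heights carry no value. HM13 lies at −1.40 at the low end of GSI against DMSO, at 0.60 in DMSO against T0 and at −0.08 in GSI against T0. The other members lie at percentiles 37.8 to 94.0, the highest being SPPL2B in GSI against DMSO.

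Guides to 1 gene share their target, and their agreement across the 8 libraries was low for each member. The median correlation between pairs of guides was −0.15 for HM13 (6 of 15 pairs positive, from −0.62 to 0.85), 0.07 for SPPL2A, −0.15 for SPPL2B and 0.10 for SPPL3. These are descriptions over 8 libraries that differ in depth and group. At the level of genes, HM13 and SPPL3 varied together most closely (r = 0.76 of the mean log2 level), and the other pairs of members had r from 0.02 to 0.45.

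Among all 18570 genes, the levels most like HM13 across the 8 libraries were those of RNF25 and DYNC2H1 (r = 0.98 each). SPPL2A was most like PRB4 and TKT (0.99 each), SPPL2B most like SLAMF6 (0.99) and KIF5B (0.97), and SPPL3 most like TM2D3 and CALML6 (0.98 each). These matches are the best of very many candidates over few points.

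No gene among the listed relatives and partners of the family was called. SPPL2C, the remaining human member, is expressed mainly in testis. Its median was 0.34 ± 0.89 in GSI against DMSO, 0.69 ± 1.56 in DMSO against T0 and 1.18 in GSI against T0. For the γ-secretase genes, which encode the enzyme that the drug inhibits, 4 of 6 medians were negative in GSI against DMSO, with a median of −0.18, against −0.02 over all genes (9795 negative and 8775 positive). PSEN2 had −0.33 ± 0.38 (SD, n = 6 guides), with an adjusted p of 0.975 on the low side in robust rank aggregation. The median of the 4 family members was 0.22, with 1 negative and 3 positive.

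The signal peptidase complex makes the remnant peptides that HM13 removes. In GSI against DMSO its 5 genes had a median of −0.11, and SEC11C, a catalytic subunit, had 0.38 ± 0.54. In DMSO against T0 their median was −0.00, with SEC11A, the other catalytic subunit, at −0.90 ± 1.05. None of the 5 was called in any comparison. Partners and substrates of signal peptide peptidase in the endoplasmic reticulum (DERL1, RNF139, XBP1 and HMOX1) had a median of 0.19 in GSI against DMSO, with 2 of 4 negative, and DERL1, a component of the degradation machinery, at 0.90 ± 2.66 (SD over 6 guides). Their medians were 0.06 in DMSO against T0 and −0.14 in GSI against T0.

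Sheddases and substrates of SPPL2A and SPPL2B, 7 genes that include ADAM10, ADAM17, TNF, CD74 and ITM2B, had a median of 0.07 in GSI against DMSO and of −0.19 in DMSO against T0. ADAM10, a sheddase that also cuts Notch ahead of γ-secretase, had 0.13 ± 1.32 in GSI against DMSO. ITM2B, a substrate of SPPL2B, had 1.24 ± 1.21 in DMSO against T0 with an adjusted p of 0.732. The glycosyltransferases that SPPL3 cuts, 4 genes with guides, had medians of −0.03 and 0.15 in these comparisons, with MGAT5 at −0.44 ± 0.80 in GSI against DMSO and B4GALT1 at 0.90 ± 3.71 in DMSO against T0.

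Intramembrane proteases of other classes, 7 genes tested, had a median of 0.08 in GSI against DMSO, with PARL, a mitochondrial rhomboid protease, at 0.24 ± 0.76, and of −0.11 in DMSO against T0, with RHBDL3, another rhomboid protease, at 0.54 ± 1.25. As a measure of what the screen could show, 71 of 80 ribosomal protein genes had negative medians in DMSO against T0, with a median of −1.04, yet only 1 of them was called, and the 999 tested non-targeting guides had a median of 0.25. The value of the non-targeting guides is over single guides and not over gene medians. In that comparison the median of all genes was 0.0048, and the family median was 0.15, over 4 gene medians from −0.15 to 0.60. The sign of a median of this size depends on the scaling: with size factors from the non-targeting guides the median of all genes in DMSO against T0 was −0.25.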

How the data were processed

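Guides were counted in genomic DNA of MB157R cells in 3 GSI, 3 DMSO and 2 T0 libraries, grouped by the sample titles. The tools named by the authors are bcl2fastq 2.19 for trimming, FastQC 0.11.5 for quality control and the count command of MAGeCK 0.5.9.2 for guide counts. The deposited raw count of each guide was the input of all tests. The deposited normalized signal was, in each library, the raw count times 1 constant, and its constants served as alternative size factors. Guides averaging at least 10 raw counts were tested with edgeR 4.0.16 (quasi-likelihood F test, R 4.3.3, limma 3.58.1) on median-ratio size factors, with only the compared groups in a fit and no covariate. Genes with at least 4 tested guides were tested by robust rank aggregation (alpha 0.25, exact null distribution), in place of MAGeCK's own test. The SE of an edgeR fold change was derived from the test, as its absolute value divided by the square root of F. Benjamini-Hochberg adjustment ran over all guides or genes, with calls under 0.05. Scripts were tested on simulated data. Alternatives were other size factors, count minimums, an alpha of 0.1, summed counts, the mean over guides, a joint fit, a replicate block, each library left out, and DESeq2 1.42.0.

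The members, the gene lists and the rules were chosen with earlier results of these data known. Named genes are the 4 members, SPPL2C, PSEN2, the list genes with the lowest p on either side, and the 2 genes most correlated with each member. Another gene that this rule takes is not reported here. NOTCH3, SOX2 and VPS33B were named after their values were seen. RHBDL1 and the symbol B4GAT1 had no guides in the table, while the older symbol B3GNT1 did. Sequences and positions came from the GENCODE annotation and genome of GRCh38.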

Additional observations from a re-analysis of the deposited data

How the results depend on the processing

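Of 205 values of the 4 genes under an alternative, 181 kept their direction, 24 changed sign, and 0 were called. The mean over guides had no test of its own and carried the adjusted p of the main fit, so it could show a change of sign only. In GSI against DMSO, SPPL2A changed sign with summed counts (−0.0871) and library totals (−0.0806), and SPPL2B with the mean over guides (−0.15) and no count filter (−0.10). In DMSO against T0, SPPL2A changed sign with summed counts (−0.0077), control size factors (−0.22) and the constants of the deposited table (−0.0399, an alternative chosen after seeing the data). SPPL2B did so with summed counts (0.0761), the mean over guides (0.0624), no filter (0.13) and the replicate block (0.17). In GSI against T0, HM13 changed sign with the replicate block (1.37), SPPL2A with summed counts (−0.10), control size factors (−0.0014) and a mean count of at least 50 (−0.0449), and SPPL2B with the mean over guides (−0.0925). Leaving out 1 library gave SPPL2A −0.053 to 0.27 in GSI against DMSO, −0.16 to 0.46 in DMSO against T0 and −0.0837 to 0.42 in GSI against T0, SPPL2B −0.56 to 0.25 in DMSO against T0 and −0.31 to 1.31 in GSI against T0, and HM13 −0.75 to 2.44 in GSI against T0. SPPL3 kept its sign with 1 library left out, at 0.03 to 0.51 in DMSO against T0 and 0.40 to 1.01 in GSI against T0. With control size factors its median in DMSO against T0 was 0.0023, close to no change. The cause of these changes was not tested.

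Over all genes, the 6 calls of DMSO against T0 became 101 with summed counts, 0 at a mean count of at least 50 and 3 in the joint fit, and 0 to 8 with 1 library left out. The 0 calls of GSI against DMSO became 1 without GSI replicate 1 (0 to 1 with 1 library left out). The 0 of GSI against T0 became 23 with summed counts, 10 with library totals, 1 at a mean count of at least 50, 1 in the joint fit and 2 with DESeq2, and 0 to 1 with 1 library left out. Of guides, the joint fit called 34 and DESeq2 6661 in DMSO against T0 (0 to 8327 with 1 library left out), library totals 10 in GSI against DMSO, and library totals 1 and DESeq2 7913 in GSI against T0 (0 to 21131). Library totals, which the dominant guide of GSI replicate 1 enters, put the median of all genes at −0.22 in GSI against DMSO and −0.16 in GSI against T0, and control size factors put it at −0.25 in DMSO against T0 and −0.22 in GSI against T0.

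The labels number the replicates but tie no number to a shared culture. Deviations of guides from their group means correlated at r = 0.280, 0.0644 and 0.121 between GSI and DMSO libraries of the same number, and every GSI library correlated best with its own number. One pair lay under 0.1, so the numbers were not taken as pairs in the main fits. Across guides, GSI replicate 1 and DMSO replicate 1 had a Spearman correlation of 0.82, the highest of any pair of libraries. The main fits leave this dependence out. With the replicate block the HM13 median in GSI against DMSO was −1.17 (rank 5), and 0 guides and 0 genes were called. HM13 had the lowest mean depth of the members, with 47.9 counts per guide, and the part of this depth in its results was not tested. The uneven T0 aliquots limit both comparisons with T0.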
